A study of Homo sapiens with 32 samples.

Results

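Keratins are the intermediate filament proteins of epithelial cells, and each filament is built from a type I and a type II keratin. The pair in use differs with the kind of epithelium: KRT5 with KRT14 or KRT15 in the basal layer of stratified and mammary epithelium, KRT8 with KRT18 in simple and luminal epithelium, the KRT6 isoforms with KRT16 and KRT17 in wounded or fast-growing epithelium, and KRT1 with KRT10 or KRT4 with KRT13 in the differentiating upper layers. Their RNA levels are therefore in common use as markers of the state of an epithelial cell.

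The keratin genes described here were the rows of the deposited count table named KRT followed by digits and at most 1 letter A to C, with at least 20 counts summed over the 32 libraries. They were 35 of 60332 rows, and 20 of the 55 keratin symbols lay under the minimum. Just inside it were KRT76 with 20, KRT38 with 22 and KRT31 with 25 counts, and just outside it were KRT37 with 18 and KRT36 and KRT84 with 12 counts each. By their known sites of expression 3 were grouped as basal, 5 as stress, 5 as simple, 11 as differentiation and 10 as hair and follicle keratins, and KRT222 was in no class.

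Poly-A RNA was sequenced from 16 groups of 2 libraries in 3 experiments. MCF10A, a non-tumorigenic human breast epithelial line, was used in the first experiment as cGAS KO, STING KO or XRCC4 KO cells 5 days after 10 Gy of irradiation, as WT cells with a CDK1 inhibitor (CDK1i) 5 days after 10 Gy, as WT cells with DMSO 5 or 3 days after 10 Gy, and as untreated WT cells. In the second, MCF10A cells were collected 3 days after 10 Gy as cells knocked out for both p53 and XRCC4 (DKO), XRCC4 KO, p53 KO or WT, the DKO and XRCC4 KO cells with and without an ATR inhibitor (ATRi). In the third, hTERT RPE-1, a telomerase-immortalised line from human retinal pigment epithelium, was collected 3 days after 10 Gy with ATRi as p53 KO, WT cGAS or WT cells. Drugs were added 1 h before irradiation and kept. Knockout lines came from single-cell colonies after lentiviral delivery of CRISPR-Cas9, so that as far as the labels say a knockout is 1 clone. No unirradiated knockout and no RPE-1 library without ATRi was among the samples, so that a difference between genotypes cannot be told apart from one already present before irradiation.

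All members lie in the type II cluster on chromosome 12 or the type I genes on chromosome 17, apart from the type I gene KRT18, which sits beside KRT8 on chromosome 12. On hg19 KRT5 spans chr12:52908359-52914471 and KRT14 spans chr17:39738531-39743173. KRT8 and KRT18 share the interval chr12:53290971-53346686 in the deposited table, and KRT7, KRT81, KRT86 and the antisense gene KRT7-AS share chr12:52626304-52702947. Also sharing an interval with at least 1 other gene were KRT10 (with TMEM99), KRT13, KRT23, KRT75, KRT80, KRT83 and KRT222. Strand was not stated for the counting, so reads of overlapping genes cannot be told apart and the values of all these genes are uncertain. The longest coding transcripts of KRT6A and KRT6C were 94.3% identical, and those of KRT81 and KRT86 shared a run of 605 bases. Runs of 269 bases were shared by KRT6A and KRT6B and by KRT6B and KRT6C, and one of 158 bases by KRT14 and KRT16. The counts of these genes are therefore uncertain too.

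Of the 35 members 16 had a promoter in the RefSeq table. The 250 bases before the start site are printed for a basal keratin that rose in XRCC4 KO cells (KRT5), a simple keratin that fell in them (KRT8), and a pair of differentiation keratins that rose in them and fell in DKO cells relative to them (KRT4 and KRT24). The windows are, on the minus strand of GRCh38.p14, chr12:52520395-52520644 for KRT5, chr12:52926470-52926719 for KRT8, chr12:52814117-52814366 for KRT4 and chr17:40703753-40704002 for KRT24. Capitals mark matches to the motifs searched, which were found in KRT24 alone among these windows.
KRT5: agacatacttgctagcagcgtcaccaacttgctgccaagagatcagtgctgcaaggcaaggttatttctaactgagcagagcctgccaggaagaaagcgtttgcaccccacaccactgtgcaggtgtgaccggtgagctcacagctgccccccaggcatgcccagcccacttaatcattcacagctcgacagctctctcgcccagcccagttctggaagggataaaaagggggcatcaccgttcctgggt
KRT8: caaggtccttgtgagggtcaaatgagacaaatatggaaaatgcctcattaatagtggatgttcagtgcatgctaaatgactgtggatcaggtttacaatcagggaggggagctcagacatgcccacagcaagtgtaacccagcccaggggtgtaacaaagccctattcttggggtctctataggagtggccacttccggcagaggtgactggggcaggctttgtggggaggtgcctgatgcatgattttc
KRT4: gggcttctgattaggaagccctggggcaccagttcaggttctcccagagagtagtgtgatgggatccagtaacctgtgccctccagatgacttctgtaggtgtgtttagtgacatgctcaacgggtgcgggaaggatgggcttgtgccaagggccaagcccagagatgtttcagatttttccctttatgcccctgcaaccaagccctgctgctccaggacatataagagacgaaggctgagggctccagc
KRT24: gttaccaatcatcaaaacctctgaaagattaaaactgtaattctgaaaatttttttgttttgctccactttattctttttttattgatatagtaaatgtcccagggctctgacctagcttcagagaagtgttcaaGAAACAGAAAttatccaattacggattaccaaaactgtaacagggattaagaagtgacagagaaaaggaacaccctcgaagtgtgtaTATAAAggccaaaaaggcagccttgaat
In KRT24 the capitals are TATAAA, 28 to 23 bases upstream, and GAAACAGAAA, a match to an interferon-response-like pattern (ISRE-like, GAAA and GAAA parted by 2 bases), 115 to 106 bases upstream. Both strands were searched, and no letters of the motifs overlapped. Over 17 promoters of members, TATAAA was in 8, the GC box GGGCGG in 3, the ISRE-like pattern in 2 and the AP-1 pattern TGANTCA in 0, against 10.7%, 42.6%, 3.02% and 6.57% of the 35116 promoters of the table.

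The libraries held between 5590061 and 18585999 estimated counts. Of 8 breast basal epithelial marker genes, all 8 had a median of at least 1 FPKM in MCF10A libraries, summing to 1644 to 3050 FPKM; in RPE-1 libraries 2 of 8 did, with sums of 13.5 to 65.6 FPKM. Of 8 retinal pigment epithelium markers, 2 reached 1 FPKM in RPE-1 libraries, with sums of 17.4 to 25.8 FPKM, and the defining gene RPE65 was at or near 0 FPKM. Immune and blood markers summed to at most 0.791 FPKM in any library. XRCC4 RNA was at 5.55 and 5.42 FPKM in XRCC4 KO libraries and 4.92 and 4.91 FPKM in WT libraries at 3 days. In RPE-1 cells labelled WT cGAS, which the labels do not explain further, cGAS RNA was at 154 and 158 FPKM, against 0.042 and 2.63 FPKM in WT libraries. A small CRISPR deletion need not lower the RNA, so XRCC4 levels do not check the XRCC4 KO labels.

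Keratins took up 1.15 to 3.63% of the counts of an MCF10A library and 0.0351 to 0.0904% of those of an RPE-1 library. In MCF10A 19 of 35 members had a median of at least 1 FPKM (fragments per kilobase of transcript, scaled to depth by the authors), and 10 of at least 100 FPKM. In RPE-1 those numbers were 10 and 2. The 2 were KRT18, with a median of 176 FPKM over 6 libraries, and KRT8, with 143 FPKM.

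**Figure D1:**
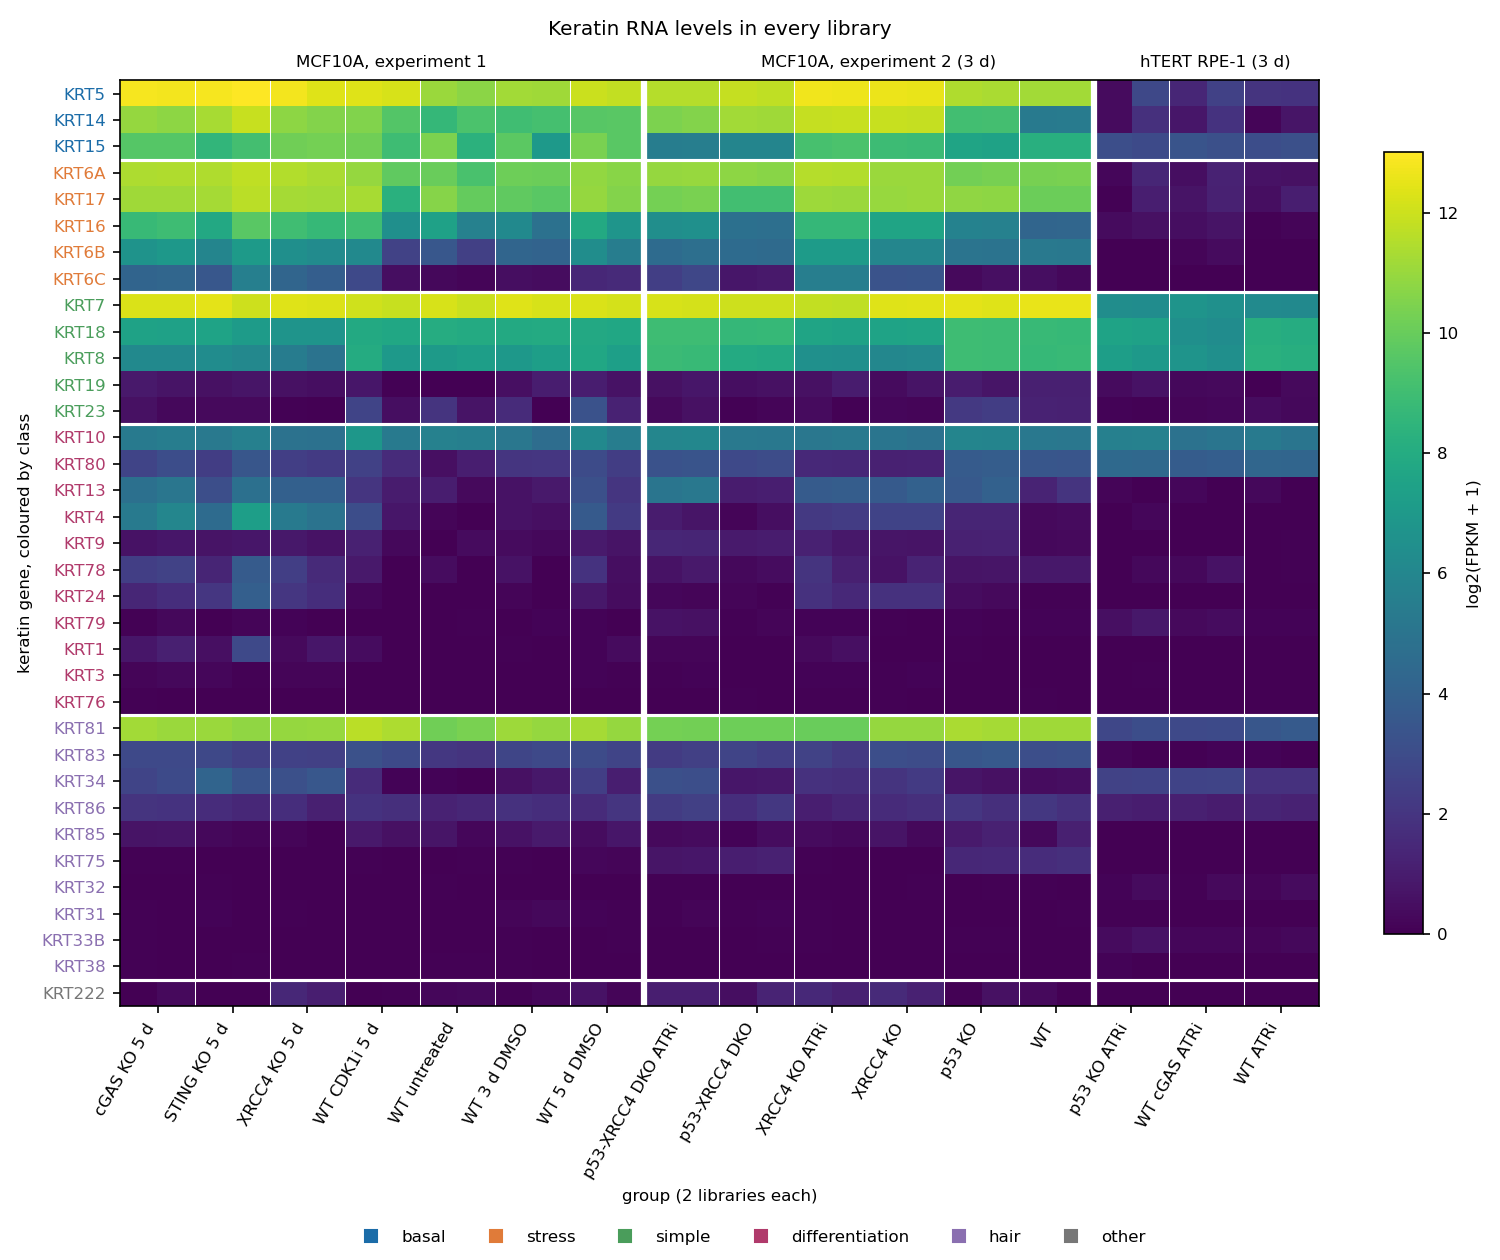
Level of each keratin gene (rows, coloured by class) in each library (columns, 2 per group) as log2(FPKM + 1), with dark for low and yellow for high. KRT5, KRT6A, KRT7, KRT17 and KRT81 are bright in the MCF10A groups, while in the RPE-1 groups KRT8, KRT18 and KRT7 are the brightest.

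In the 26 MCF10A libraries the highest FPKM belonged to keratins of 4 classes. KRT7, a keratin of simple and ductal epithelium, ranged between 3437 and 6085 FPKM with a median of 4805 FPKM, and basal KRT5 between 1731 and 8867 FPKM with a median of 3828 FPKM. The hair keratin KRT81 had a median of 1980 FPKM, the stress keratins KRT6A and KRT17 had medians of 1928 and 1802 FPKM, and basal KRT14 had one of 1499 FPKM. KRT14 had the widest range of these 6 relative to its lowest value, with a lowest value of 38.9 FPKM and a highest of 3907 FPKM. By FPKM the leading keratin was KRT7 in 7 of the 13 MCF10A groups and KRT5 in the other 6. By CPM, depth-scaled counts, per kilobase of transcript KRT7 led in 0 groups. The ratio of CPM to FPKM for KRT7 implies a length of 0.503 kb, against 1754 bases for its longest coding transcript. The place of KRT7 thus depends on the values used. Whether the authors' length or reads in its shared interval set this ratio was not tested. For KRT5 the ratio implies 1.22 kb, against 2531 bases, so its place depends on the values used too. For KRT81 and KRT6A the lengths were close, at 2.00 kb against 1929 bases and 2.16 kb against 2310 bases. By CPM per kilobase KRT81 led in the WT and p53 KO groups of MCF10A. KRT6A led in DKO cells with ATRi, and KRT5 in the remaining MCF10A groups.

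Simple keratins made up 69.6 to 86.3% of the keratin counts in RPE-1 libraries and 6.65 to 25.6% in MCF10A libraries. Within MCF10A the basal share was 46.8 and 46.1% in the XRCC4 KO libraries at 3 days, against 20.0 and 20.3% in the WT libraries of the same experiment. The simple share was 11.0 and 11.2% in these XRCC4 KO libraries, against 25.6 and 25.4% in WT libraries. In bulk RNA fewer cells of a type and less RNA per cell cannot be told apart, for this and every result that follows.

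**Figure D2:**
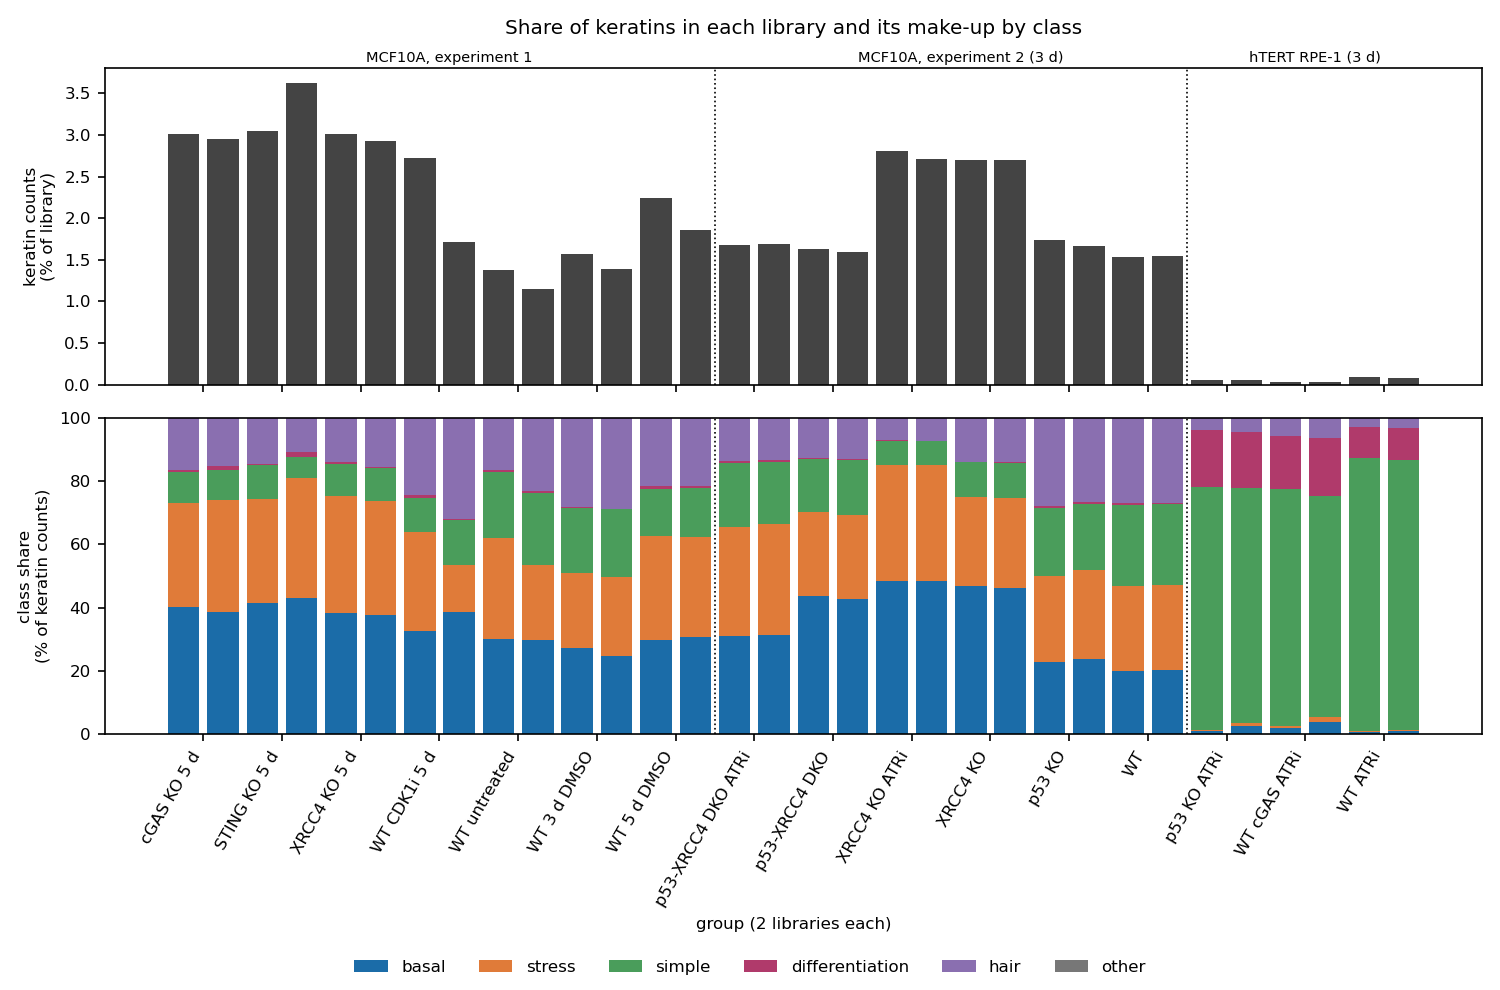
Keratin counts as a percentage of each library (upper bars) and the share of each keratin class in those counts (lower stacked bars), 2 libraries per group. The RPE-1 bars are nearly flat in the upper panel, at most 0.0904%, and mostly simple keratin in the lower one.

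The first experiment asked how irradiation over time, a CDK1 block and loss of cGAS, STING or XRCC4 change expression. Values given for a group are counts scaled to a common depth (CPM) by edgeR's TMM factors (TMM CPM) in its 2 libraries, and an error after ± on a log2 fold change is its standard error. Rose, fell and called are used for genes whose adjusted p, over all genes tested, was below 0.05. The labels do not say that replicates came from separate cultures, so p-values measure the spread between these libraries, which may be technical. With 2 against 2 libraries a permutation test cannot go below 0.333, so the tests borrow their estimate of spread across genes.

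After irradiation of WT cells with DMSO the hair keratins KRT81 and KRT83 rose by day 3. By day 5 basal KRT5, the stress keratins KRT6A and KRT6B and several low differentiation keratins were higher than in untreated cells. The labels name no DMSO for the untreated cells, so irradiation and DMSO cannot be told apart in this course. KRT5 was at 2318 and 2284 CPM in untreated libraries, 2761 and 2505 CPM at 3 days and 4606 and 3849 CPM at 5 days (log2 fold change 0.88 ± 0.15, edgeR adjusted p = 0.00259 for 5 days against untreated). Both 5-day libraries lay above all others of this course. KRT81 was at 2115 and 2551 CPM untreated, 4218 and 3810.4 CPM at 3 days and 4871 and 3859.7 CPM at 5 days, and passed at both times (log2 fold changes 0.78 ± 0.17 and 0.90 ± 0.17, edgeR adjusted p = 0.0275 and 0.00417). It was higher in both irradiated libraries at each time than in either untreated one.

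Of the 26 members tested in the first experiment, 2 rose and 0 fell at 3 days against 3.65% and 2.87% of all genes, and 10 rose and 0 fell at 5 days against 15.1% and 14.3% of all genes. The members' median log2 fold change was 0.70 at 3 days and 1.34 at 5 days, or 0.59 and 1.20 where members without a count in untreated libraries take their bound, beside -0.00 and 0.00 for all genes. KRT6A, a keratin of activated epithelium, was at 1942 and 1268 CPM untreated, 2228 and 2246 CPM at 3 days and 4116 and 3438 CPM at 5 days (log2 fold change 1.23 ± 0.33, edgeR adjusted p = 0.0197). KRT80, a type II keratin of differentiating epithelia, was at 1.76 and 4.55 CPM untreated, 12.6 and 12.7 CPM at 3 days and 29.7 and 17.0 CPM at 5 days (log2 fold change 2.94 ± 0.64, edgeR adjusted p = 0.00921). Neither gene's 5-day libraries overlapped the untreated ones. KRT4 and KRT13, a pair of moist stratified epithelia, were near 0 in untreated libraries and higher but uneven at 5 days, KRT4 with 23.8 and 6.76 CPM and KRT13 with 7.77 and 3.44 CPM in the 5-day libraries. Their log2 fold changes were 6.41 ± 1.94 and 4.19 ± 1.18 (edgeR adjusted p = 0.0333 and 0.0256). KRT19, a simple keratin, had 0 counts in both untreated libraries, and the 5-day level was at least 7.99-fold higher, against 3 counts over the group. KRT6B and the hair keratins KRT83 and KRT34 were the other called members. KRT6B and KRT83 had log2 fold changes of 3.13 ± 1.00 and 1.08 ± 0.21, and KRT34, with 149 counts at 5 days and 2 in untreated libraries, had a ratio of 55.8 (exact 95% counting interval 15.2 to 465, counting error only).

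The counts moved when 1 library was left out. At 3 days 0 members passed without either 3-day library or untreated library 1, and 1 without untreated library 2. At 5 days 5 passed without either untreated library, 4 without 5-day library 1 and 9 without 5-day library 2. At 5 days KRT5, KRT19 and KRT81 passed in each of these fits, while KRT6B passed in none of the 4. KRT4, KRT13 and KRT34 were lost without either untreated library or 5-day library 1, KRT6A without untreated library 2 or 5-day library 1, and KRT80 without untreated library 1 or 5-day library 1. Between 5 and 3 days 0 members passed edgeR's test, where 0.217% of all genes rose and 0.0461% fell; 6 members had an unadjusted p under 0.05, and DESeq2 called 3. Basal KRT15 differed more between replicates than between times, with 1076 and 261 CPM untreated, 722 and 116 CPM at 3 days and 1184 and 669 CPM at 5 days.

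With the CDK1 inhibitor 0 of 26 members passed edgeR's test against DMSO at 5 days, where 4.73% of all genes rose and 7.37% fell; 4 had an unadjusted p under 0.05 and DESeq2 called 2. The members' median log2 fold change was -0.29, beside -0.04 for all genes. The replicates with the inhibitor were far apart for the stress keratins: KRT17 had 3267 and 394 CPM in them, against 2775 and 1940.3 CPM with DMSO, and KRT16 had 735 and 123 CPM, against 354 and 158 CPM. Without replicate 1 of the inhibitor 5 members were called lower, and without the filter on low counts 1 was called.

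All 3 knockouts shared a direction for the main basal and simple pair members at 5 days. KRT5 and KRT14 rose and KRT8 fell in each, relative to the same 2 WT libraries. The labels name DMSO for these WT libraries and not for the knockouts. Genotype and DMSO therefore cannot be told apart in any knockout comparison of this experiment. KRT5 had 9152 and 8659 CPM in cGAS KO, 9174 and 10609.8 CPM in STING KO and 8979.7 and 8526 CPM in XRCC4 KO libraries, against 4606 and 3849 CPM in WT libraries. Its log2 fold changes were 1.07 ± 0.15, 1.23 ± 0.15 and 1.05 ± 0.15 (edgeR adjusted p = 0.00208, 0.000971 and 0.00117). All 6 knockout libraries lay above both WT libraries. KRT14, the partner of KRT5, had 2572 and 2298 CPM in cGAS KO, 3292 and 5199 CPM in STING KO and 2504 and 2399.9 CPM in XRCC4 KO libraries, against 977 and 1004 CPM in WT libraries (log2 fold changes 1.30 ± 0.34, 2.10 ± 0.35 and 1.31 ± 0.34; edgeR adjusted p = 0.0333, 0.00445 and 0.0208). Again no knockout library reached down to the WT ones. KRT8 had 107 and 97.9 CPM in cGAS KO, 133 and 82.9 CPM in STING KO and 54.9 and 47.0 CPM in XRCC4 KO libraries, against 316 and 239 CPM in WT libraries (log2 fold changes -1.44 ± 0.32, -1.36 ± 0.32 and -2.45 ± 0.34; edgeR adjusted p = 0.0194, 0.0212 and 0.00128). Because the comparisons share their WT libraries, their common direction is not independent evidence. Luminal mammary markers summed to 195 to 198 FPKM in cGAS KO, 161 to 179 FPKM in STING KO and 261 to 315 FPKM in XRCC4 KO libraries, against 379 to 656 FPKM in WT libraries, with 1 of 4 tested lower in each. Mesenchymal markers summed to 126 to 135, 166 to 204 and 70.7 to 74.8 FPKM in the same knockouts, against 149.9 to 270.0 FPKM in WT libraries, with 1, 1 and 0 of 3 tested lower. Of all genes 6.88%, 7.73% and 12.4% fell in cGAS KO, STING KO and XRCC4 KO cells, and 1 call in lists this short shows no shift of a list. The part of either list in the keratin differences was not tested.

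KRT18, the partner of KRT8, was called lower in XRCC4 KO cells, with 179 and 178 CPM, against 327 and 293 CPM in WT cells (log2 fold change -0.80 ± 0.13, edgeR adjusted p = 0.00255). In cGAS KO and STING KO cells it had 271 and 255 CPM and 277 and 209 CPM and did not pass. KRT6C, a minor KRT6 isoform, rose in each knockout, with 44.0 and 47.8 CPM in cGAS KO, 26.3 and 127 CPM in STING KO and 50.2 and 39.3 CPM in XRCC4 KO libraries, against 4.19 and 4.56 CPM in WT libraries. Its log2 fold changes were 3.38 ± 0.96, 4.13 ± 0.97 and 3.35 ± 0.96 (edgeR adjusted p = 0.0465, 0.0216 and 0.0324). KRT13 rose in cGAS KO and XRCC4 KO cells (log2 fold changes 2.97 ± 0.65 and 2.05 ± 0.65), and KRT24, a keratin of differentiating keratinocytes, in STING KO and XRCC4 KO cells (4.13 ± 0.76 and 2.56 ± 0.83). KRT1, a suprabasal epidermal keratin, rose in STING KO cells, as did KRT4 and KRT34 (log2 fold changes 4.21 ± 1.09, 3.80 ± 1.05 and 2.40 ± 0.68), and in each case the replicates were uneven, KRT4 having 50.8 and 373 CPM. KRT222 had 0 counts in STING KO libraries, the WT level being at least 3.05-fold higher, and was higher in XRCC4 KO than in WT libraries (2.96 ± 0.44).

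In cGAS KO cells 4 of 26 members rose and 1 fell, against 6.65% and 6.88% of all genes. In STING KO cells 7 rose and 2 fell, against 7.43% and 7.73%, and in XRCC4 KO cells 6 rose and 2 fell, against 12.4% and 12.4%. The members' median log2 fold changes were 0.35, 0.60 and 0.65, beside -0.02, -0.01 and -0.03 for all genes. Without the filter on low counts 1, 4 and 4 members were called in cGAS KO, STING KO and XRCC4 KO cells, and with the libraries compared alone 8, 1 and 11. Under the FPKM values with limma the splits were 1 higher and 1 lower in cGAS KO and 1 higher and 2 lower in XRCC4 KO cells. Leaving out 1 library gave 1 or 2 calls in cGAS KO cells, 4 without either WT library, 10 without replicate 1 and 3 without replicate 2 in STING KO cells, and 4 or 5 in XRCC4 KO cells. KRT5 passed in every one of those fits for all 3 knockouts, KRT14 for STING KO alone, and KRT8, KRT18 and KRT222 for XRCC4 KO cells. KRT8 was lost in cGAS KO cells without WT library 1 or either knockout library, and in STING KO cells without WT library 1 or STING KO library 2; KRT14, KRT13 and KRT6C were lost in cGAS KO and XRCC4 KO cells without any 1 of the libraries compared, and so was KRT24 in XRCC4 KO cells. In STING KO cells KRT6C, KRT4 and KRT1 were lost without either WT library or STING KO library 2, KRT34 without WT library 2 or either STING KO library, and KRT24 without WT library 2. Without STING KO library 2 the log2 fold changes of KRT1, KRT4, KRT6C and KRT24 were 2.10, 1.75, 2.59 and 2.63.

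The second experiment set loss of p53, loss of XRCC4, a ligation factor of DNA end joining, and ATR inhibition beside one another. Its replicates were much closer than those of the first, with a common biological coefficient of variation of 0.0361, against 0.187. In XRCC4 KO cells 3 days after irradiation the basal and stress keratins rose and most simple keratins fell. KRT14 had 5003 and 4951 CPM in XRCC4 KO libraries, against 43.5 and 44.8 CPM in WT libraries (log2 fold change 6.81 ± 0.05, edgeR adjusted p = 1.12e-32). KRT5 had 8929.8 and 8822 CPM, against 2795 and 2876 CPM in WT libraries (log2 fold change 1.65 ± 0.04, edgeR adjusted p = 3.66e-22). Both basal genes were far apart between the genotypes, KRT14 by much more than its partner. KRT8 had 90.0 and 89.1 CPM in XRCC4 KO libraries, against 476 and 487 CPM in WT libraries (log2 fold change -2.43 ± 0.04, edgeR adjusted p = 2.4e-24), and KRT18 had 280.0 and 292 CPM, against 561 and 552 CPM (log2 fold change -0.96 ± 0.04, edgeR adjusted p = 1.01e-16). No library of one genotype reached the range of the other for these genes.

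**Figure D3:**
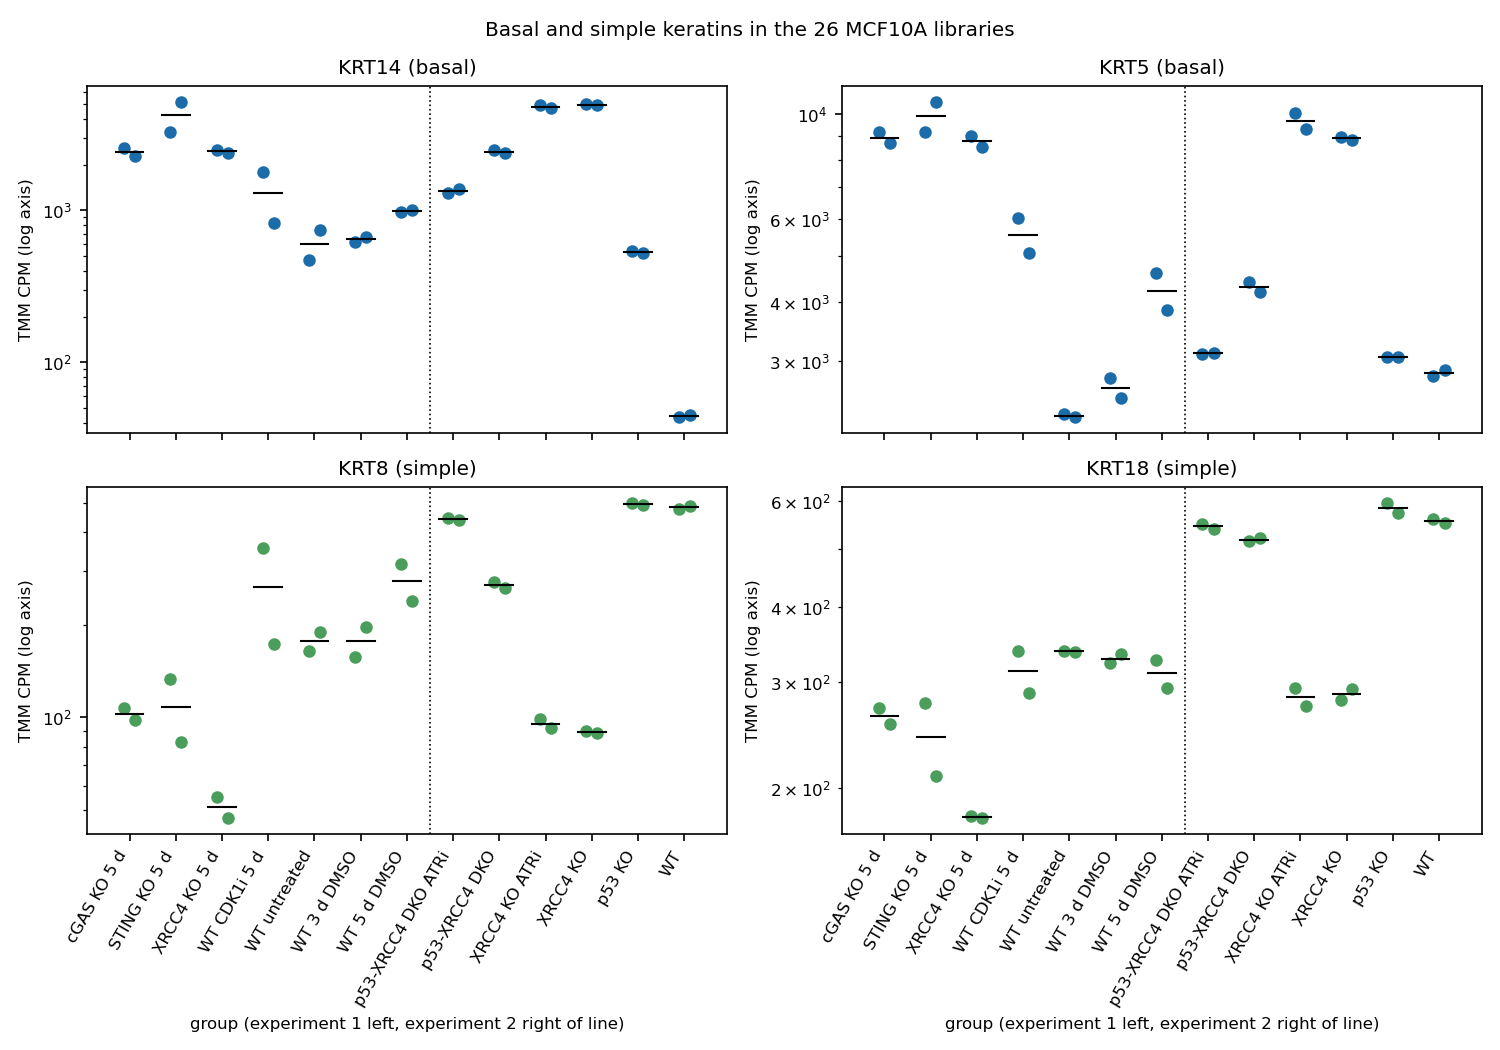
TMM CPM on log axes of basal KRT14 and KRT5 and simple KRT8 and KRT18 in the 26 MCF10A libraries; points are libraries, lines are means of 2, and the dotted line parts experiment 1 (left) from experiment 2 (right), which were scaled apart. The XRCC4 KO points lie above those of WT of the same experiment for KRT14 and KRT5 and below them for KRT8 and KRT18.

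Of 28 members tested, 14 rose and 6 fell in XRCC4 KO cells, against 28.6% and 27.5% of all genes, and the members' median log2 fold change was 0.69, beside -0.01 for all genes. By class, 3 of 3 basal, 5 of 5 stress and 4 of 8 differentiation keratins rose, while 4 of 5 simple keratins fell. KRT16, the type I partner of KRT6, had 292 and 295 CPM in XRCC4 KO libraries, against 23.7 and 25.3 CPM in WT libraries (log2 fold change 3.58 ± 0.06, edgeR adjusted p = 1.29e-25). KRT6A, KRT6B, KRT17 and basal KRT15 rose less, with log2 fold changes between 0.91 and 1.18. KRT6C had 24.0 and 24.7 CPM, against 0.900 and 0.527 CPM in WT libraries (log2 fold change 5.11 ± 0.20, edgeR adjusted p = 2.13e-17).

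The differentiation keratins went both ways. KRT4 had 12.5 and 10.8 CPM in XRCC4 KO libraries, against 0.554 and 0.644 CPM in WT libraries (log2 fold change 4.26 ± 0.23, edgeR adjusted p = 1.34e-14), and KRT13 had 15.4 and 19.2 CPM, against 1.66 and 1.81 CPM (log2 fold change 3.30 ± 0.18, edgeR adjusted p = 2.26e-14). KRT24, whose promoter is printed above with KRT4, had 5.58 and 5.48 CPM, against 0.0692 and 0.117 CPM in WT libraries, and with 3 WT counts its ratio was 58.1 with an exact 95% counting interval of 19.5 to 285. KRT80 fell, with 5.85 and 6.04 CPM, against 38.6 and 38.2 CPM in WT libraries (log2 fold change -2.69 ± 0.10, edgeR adjusted p = 1.96e-17). The hair-follicle keratin KRT75 was nearly absent in XRCC4 KO libraries, with 2 counts and 0.0657 and 0.0702 CPM, against 4.78 and 5.38 CPM in WT libraries; the WT level was higher by a ratio of 75.2 (interval 20.5 to 626, counting error only). KRT23 and KRT19, both simple, fell by 3.36 and 1.51 on the log2 scale; KRT222, KRT34 and KRT9 rose (3.69 ± 0.92, 3.37 ± 0.27 and 1.49 ± 0.37). The WT libraries had 7 and 0 counts of KRT222, whose log2 fold change was 2.59 without WT library 2 and 1.20 with limma on log2(FPKM + 1); without WT library 1 it had no WT count, which gives no bound by a fit. KRT7, KRT10 and KRT81 did not pass, with log2 fold changes between 0.04 and 0.08. KRT19 did not pass without WT library 1, without XRCC4 KO library 1, or with DESeq2, its adjusted p reaching 0.130; 19 or 20 members passed whichever library was left out.

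**Figure D4:**
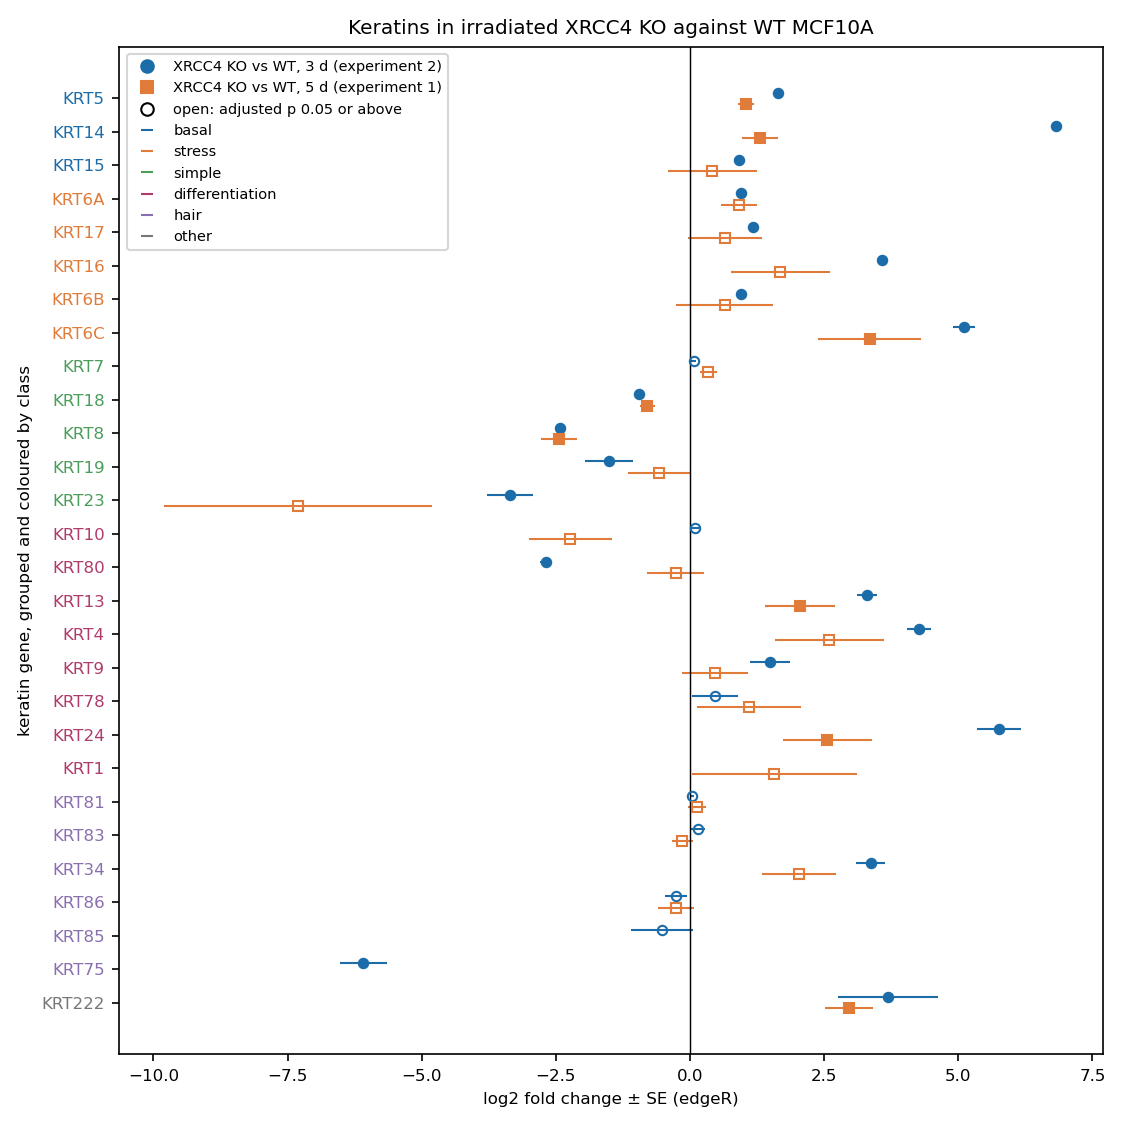
Log2 fold change ± SE (edgeR) of each tested keratin in XRCC4 KO against WT MCF10A, at 3 days in experiment 2 (circles) and at 5 days in experiment 1 (squares); filled symbols passed and open ones did not, and folds with a group at or near 0 counts depend on the prior count. Basal and stress keratins lie to the right of 0 and KRT8 and KRT18 to the left in both. The labels name DMSO for the WT cells at 5 days and not for the XRCC4 KO cells.

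WT levels differed between the experiments. KRT14 was at 38.9 and 40.9 FPKM in the WT libraries 3 days after irradiation in the second experiment and 524 and 572 FPKM in the DMSO-treated WT libraries of the same day in the first. KRT8 was at 424 and 435 FPKM and 121 and 155 FPKM in those libraries. The WT libraries of the second experiment were thus lower for KRT14 and higher for KRT8. No test was made between experiments, which differ in DMSO, and whether this sets the size of the KRT14 change was not tested. XRCC4 KO libraries were at 3851 and 3729 FPKM at 3 days and 1775 and 1556 FPKM at 5 days for KRT14.

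In p53 KO cells KRT14 and several differentiation keratins rose while KRT8 and KRT18 did not pass. KRT14 had 544 and 525 CPM in p53 KO libraries, against 43.5 and 44.8 CPM in WT libraries (log2 fold change 3.60 ± 0.05, edgeR adjusted p = 9.64e-27). KRT13 had 10.2 and 11.6 CPM, against 1.66 and 1.81 CPM (log2 fold change 2.63 ± 0.20, edgeR adjusted p = 1.5e-11), and KRT10, the suprabasal partner of KRT1, had 50.2 and 51.2 CPM, against 17.7 and 17.8 CPM (log2 fold change 1.51 ± 0.07, edgeR adjusted p = 1.2e-15). Both p53 KO libraries lay above both WT libraries for these genes. KRT10 depended on the authors' values used: it was at 58.3 and 56.3 FPKM in p53 KO and 35.9 and 34.9 FPKM in WT libraries, and limma on log2(FPKM + 0.1) gave a log2 fold change of 0.69. KRT4, KRT9 and KRT16 rose too, by log2 fold changes of 2.01 ± 0.33, 2.08 ± 0.32 and 1.30 ± 0.07. Basal KRT15 fell, with 129 and 132 CPM, against 224 and 227 CPM in WT libraries (log2 fold change -0.79 ± 0.04, edgeR adjusted p = 3.78e-14).

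Over the family 12 of 28 members rose and 5 fell in p53 KO cells, against 25.9% and 27% of all genes, and 6 of 8 differentiation keratins rose with 0 falling. The members' median log2 fold change was 0.25, beside 0.01 for all genes. With FPKM and limma the split was 13 higher and 3 lower. The other called changes were small for the abundant genes: KRT17 0.54 ± 0.04, KRT80 0.25 ± 0.07, KRT5 0.11 ± 0.04, KRT6A -0.20 ± 0.03, KRT7 -0.34 ± 0.04, KRT6B -0.41 ± 0.06 and KRT75 -0.48 ± 0.17 on the log2 scale. KRT83 and KRT23 rose by 0.31 ± 0.12 and 1.42 ± 0.19, and KRT24, with 3 counts in WT libraries, by a ratio of 5.22 (exact 95% counting interval 1.51 to 27.8). KRT5 did not pass without WT library 1 and KRT75 not without p53 KO library 1 or WT library 2, with adjusted p-values up to 0.146 and 0.513.

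Loss of p53 on top of XRCC4 went with lower basal and stress keratins and higher KRT8 and KRT18 than in XRCC4 KO cells. KRT14 had 2489.6 and 2376 CPM in DKO libraries, against 5003 and 4951 CPM in XRCC4 KO libraries (log2 fold change -1.03 ± 0.04, edgeR adjusted p = 1.31e-18), and KRT5 had 4409 and 4203 CPM, against 8929.8 and 8822 CPM (log2 fold change -1.04 ± 0.04, edgeR adjusted p = 1.35e-18). KRT15, also basal, had 48.6 and 43.3 CPM, against 421 and 426 CPM (log2 fold change -3.20 ± 0.05, edgeR adjusted p = 4.14e-26). All DKO libraries were below all XRCC4 KO libraries for the 3 genes. KRT8 had 276 and 264 CPM in DKO libraries, against 90.0 and 89.1 CPM in XRCC4 KO libraries (log2 fold change 1.59 ± 0.04, edgeR adjusted p = 8.64e-21), and KRT18 had 515 and 522 CPM, against 280.0 and 292 CPM (log2 fold change 0.86 ± 0.04, edgeR adjusted p = 5.17e-16).

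Here 4 of 28 members rose and 16 fell, against 32.2% and 32.7% of all genes, with a median log2 fold change of -1.04 beside 0.02. The falls took in 3 of 3 basal, 5 of 5 stress, 4 of 8 differentiation and 3 of 6 hair keratins. KRT4 had 0.336 and 0.291 CPM in DKO libraries, against 12.5 and 10.8 CPM in XRCC4 KO libraries (log2 fold change -5.19 ± 0.25, edgeR adjusted p = 9.81e-16), and KRT24 had 0.224 and 0.116 CPM, against 5.58 and 5.48 CPM (log2 fold change -4.95 ± 0.36, edgeR adjusted p = 2.81e-12). KRT13 and KRT16 fell by log2 fold changes of -3.84 ± 0.19 and -3.17 ± 0.05, and KRT6C and KRT17 had -4.00 ± 0.16 and -2.25 ± 0.04. KRT6A, KRT6B, KRT7 and KRT81 fell less, between -1.74 and -0.61, and KRT34, KRT78 and KRT83 between -2.38 and -0.91. KRT80 rose (2.09 ± 0.11), as did KRT75, which had 93 counts in DKO libraries and 2 in XRCC4 KO libraries, a ratio of 39.1 (exact 95% counting interval 10.5 to 328). The XRCC4 KO libraries are shared with the comparison of XRCC4 KO and WT cells.

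Against p53 KO cells, DKO cells, a separate line, had more KRT14 and less of most other keratins: 4 members rose and 16 fell, against 24.6% and 25% of all genes, with a median log2 fold change of -0.86 beside -0.00. KRT14 had 2489.6 and 2376 CPM in DKO libraries, against 544 and 525 CPM in p53 KO libraries (log2 fold change 2.19 ± 0.04, edgeR adjusted p = 9.14e-24). KRT5 and KRT6A rose by 0.49 ± 0.04 and 0.52 ± 0.03 on the log2 scale. KRT17 had 617 and 604 CPM, against 1921 and 1815 CPM in p53 KO libraries (log2 fold change -1.61 ± 0.04, edgeR adjusted p = 3.24e-21), and KRT8 had 276 and 264 CPM, against 499 and 493 CPM (log2 fold change -0.88 ± 0.04, edgeR adjusted p = 5.58e-16). KRT23, with 3 counts in DKO libraries and 198 in p53 KO libraries, was higher in p53 KO cells by a ratio of 67.5 (exact 95% counting interval 22.8 to 330.3). KRT13 and KRT4 fell by log2 fold changes of -3.17 ± 0.21 and -2.94 ± 0.37. KRT10, KRT15, KRT81, KRT19, KRT16, KRT80, KRT6B, KRT7 and KRT18 lay between -1.60 and -0.18, KRT10 being at -0.64 with limma on log2(FPKM + 0.1), and KRT83 and KRT85 at -1.08 ± 0.13 and -2.42 ± 0.67. KRT6C (1.10 ± 0.37) and KRT19 were not called without p53 KO library 1 or DKO library 1, and KRT19 also not without DKO library 2 (adjusted p up to 0.219 and 0.362).

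The ATR inhibitor, which releases the G2-M checkpoint, was given in both genotypes. In XRCC4 KO cells it went with more KRT6 and KRT16: KRT6C had 119 and 119 CPM with ATRi, against 24.0 and 24.7 CPM without (log2 fold change 2.29 ± 0.07, edgeR adjusted p = 2.72e-17), KRT6B had 369 and 349.8 CPM, against 158 and 163 CPM (log2 fold change 1.17 ± 0.05, edgeR adjusted p = 5.95e-15), and KRT16 had 622 and 611 CPM, against 292 and 295 CPM (log2 fold change 1.07 ± 0.04, edgeR adjusted p = 6.9e-16). For each, both libraries with ATRi were above both without. KRT81 had 2247 and 2167 CPM with ATRi, against 4225 and 4281 CPM without (log2 fold change -0.95 ± 0.04, edgeR adjusted p = 1.67e-15), and KRT7 had 2049 and 1919 CPM, against 2997 and 3063 CPM (log2 fold change -0.61 ± 0.04, edgeR adjusted p = 2.78e-11). Of 28 members 9 rose and 4 fell, against 6.67% and 10.3% of all genes, the rises taking in 4 of 5 stress keratins, and the members' median log2 fold change was -0.00, beside 0.00 for all genes. KRT6A, KRT15, KRT10, KRT5 and KRT78 rose by 0.46 ± 0.03, 0.34 ± 0.04, 0.36 ± 0.08, 0.12 ± 0.04 and 1.30 ± 0.32, and KRT4 and KRT83 fell (-0.51 ± 0.13 and -0.87 ± 0.14). KRT1 had 0 counts without ATRi and was at least 6.73-fold higher with it. KRT5 was not called without either XRCC4 KO library or ATRi library 1, KRT4 not without library 1 of either group, KRT10 not without XRCC4 KO library 2 and KRT78 not without XRCC4 KO library 1, with adjusted p-values up to 0.290, 0.565, 0.123 and 0.359 over the alternatives.

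In DKO cells ATRi went with less of the basal keratins and more differentiation keratin RNA. KRT14 had 1309 and 1381 CPM in DKO libraries with ATRi, against 2489.6 and 2376 CPM without (log2 fold change -0.85 ± 0.04, edgeR adjusted p = 2.5e-16), and KRT5 had 3112 and 3126 CPM, against 4409 and 4203 CPM (log2 fold change -0.47 ± 0.04, edgeR adjusted p = 4.81e-11). KRT13 had 29.1 and 29.3 CPM with ATRi, against 1.51 and 0.873 CPM without (log2 fold change 4.60 ± 0.16, edgeR adjusted p = 3.9e-18). The groups did not overlap for any of the 3. The hair keratin KRT34 had 11.2 and 10.9 CPM with ATRi, against 1.18 and 1.22 CPM without (log2 fold change 3.20 ± 0.18, edgeR adjusted p = 8.12e-14), and KRT8 had 445 and 438 CPM, against 276 and 264 CPM (log2 fold change 0.71 ± 0.04, edgeR adjusted p = 3.11e-14). KRT6C, KRT4, KRT16 and KRT17 rose by 2.65 ± 0.19, 2.08 ± 0.41, 1.55 ± 0.06 and 1.03 ± 0.04, and KRT10 and KRT80 by 0.68 ± 0.08 and 0.24 ± 0.07. KRT15, KRT75 and KRT83 fell (-0.68 ± 0.06, -0.94 ± 0.24 and -0.38 ± 0.16).

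Of 28 members 10 rose and 5 fell with ATRi in DKO cells, against 26.1% and 32.4% of all genes, with a median log2 fold change of 0.36 beside -0.02, and with FPKM and limma 13 rose and 3 fell. By class 0 of 3 basal keratins rose and 3 fell, while 5 of 8 differentiation keratins rose and 0 fell. KRT1, with 9 counts with ATRi and 1 without, was among the rises, at a ratio of 7.90 (exact 95% counting interval 1.10 to 346). KRT80 was lost without DKO library 1 or ATRi library 2, and KRT83 without library 1 of either group (adjusted p up to 0.208 and 0.501).

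The difference between both ATRi effects was tested as an interaction, DKO minus XRCC4 KO, and 15 of 28 members passed, 10 with a positive and 5 with a negative difference, against 13% and 21% of all genes, with a median of 0.34 beside -0.05. The largest were those of KRT13 (log2 fold change 4.78 ± 0.21, edgeR adjusted p = 3.95e-15), KRT34 (log2 fold change 3.59 ± 0.26, edgeR adjusted p = 4.6e-11) and KRT4 (log2 fold change 2.60 ± 0.43, edgeR adjusted p = 3.11e-05), which rose with ATRi in DKO cells and in XRCC4 KO cells either fell or did not pass. KRT17 (1.02 ± 0.05), KRT81 (0.87 ± 0.05), KRT8 (0.62 ± 0.06) and KRT7 (0.59 ± 0.06) were positive too. All 3 basal keratins were negative, KRT15 at -1.02 ± 0.07, KRT14 at -0.81 ± 0.05 and KRT5 at -0.59 ± 0.05, as were KRT6B at -1.26 ± 0.08 and KRT6A at -0.41 ± 0.05. KRT10 and KRT86 were each lost without any 1 of 4 of the 8 libraries (adjusted p up to 0.188 and 0.131): KRT10 without replicate 1 of either XRCC4 KO group or replicate 2 of either DKO group, and KRT86 without XRCC4 KO library 2, XRCC4 KO ATRi library 1, DKO library 1 or DKO ATRi library 2.

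**Figure D5:**
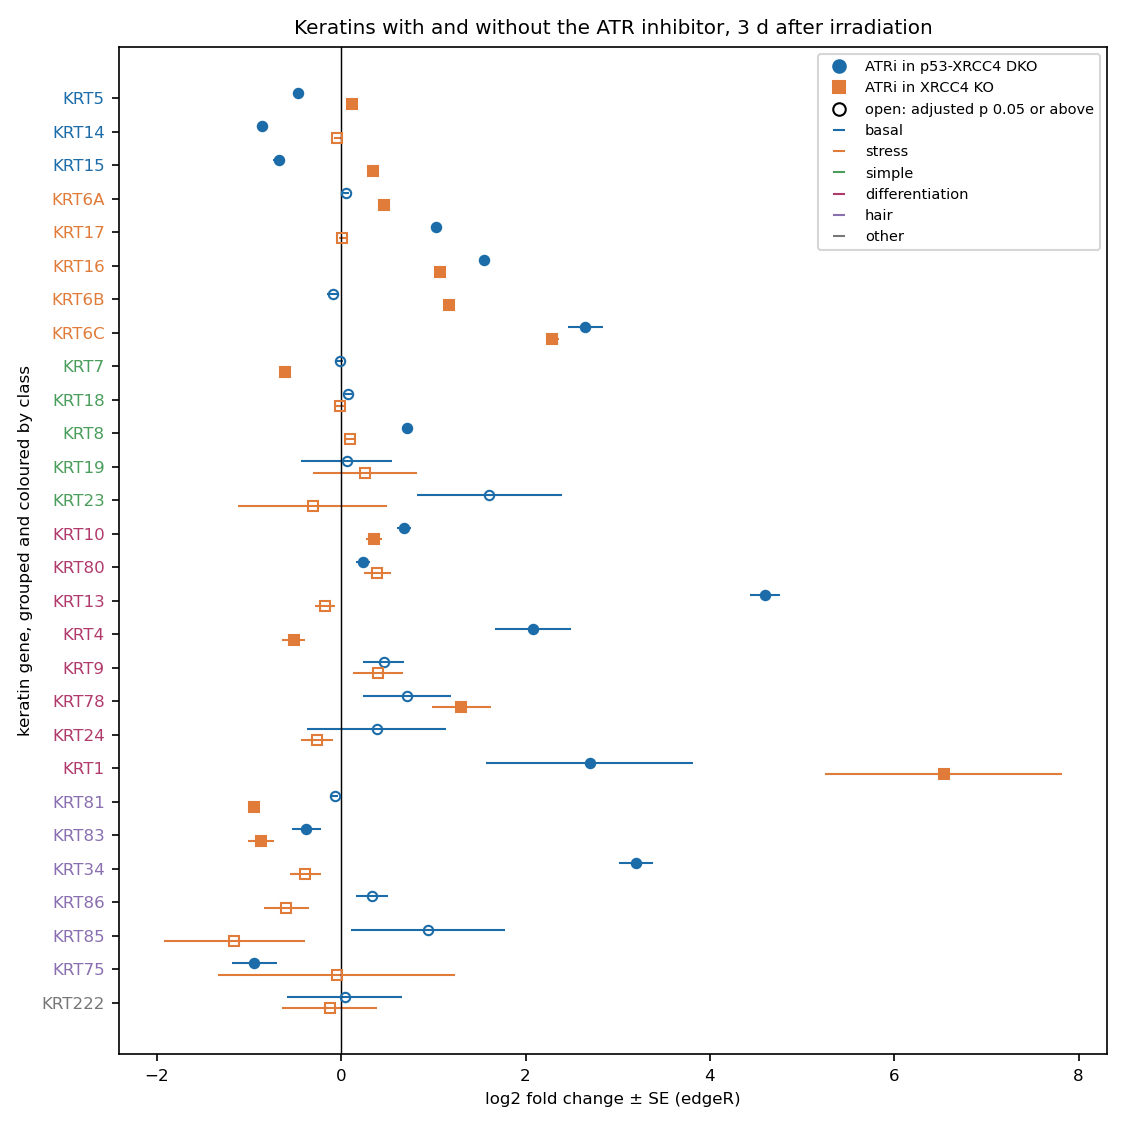
Log2 fold change ± SE (edgeR) of each tested keratin with against without ATRi, in DKO (circles) and XRCC4 KO MCF10A (squares) 3 days after irradiation; filled symbols passed and open ones did not, and folds with a group at or near 0 counts depend on the prior count. KRT13, KRT34 and KRT4 lie to the right for DKO and at or left of 0 for XRCC4 KO, and the DKO circles of the 3 basal keratins lie left of 0.

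Genes that work with keratins were counted from lists. Of 14 desmosome and plakin genes, whose proteins anchor keratin filaments to the membrane, 7 rose and 3 fell in XRCC4 KO against WT cells at 3 days, and 2 rose and 11 fell in DKO against XRCC4 KO cells, with median log2 fold changes of 0.17 and -0.87. Of all genes 28.6% rose and 27.5% fell in the first of these comparisons, and 32.2% rose and 32.7% fell in the second. Plakophilin PKP1, desmoplakin DSP and desmocollin DSC3 had log2 fold changes of 2.62 ± 0.39, 0.66 ± 0.04 and 0.88 ± 0.05 in XRCC4 KO cells. In DKO cells relative to XRCC4 KO cells PKP1 was at 1.49 ± 0.20, DSP at -0.78 ± 0.04 and the desmoglein DSG3 at -1.94 ± 0.05. PKP1 was low, with a median of 0.525 FPKM and between 1 and 126 counts over the 26 MCF10A libraries. Of 9 tested transcription factors of stratified epithelium, 5 rose and 1 fell in XRCC4 KO cells, 1 rose and 7 fell in DKO against XRCC4 KO cells, and 6 rose and 1 fell with ATRi in DKO cells, with medians of 0.48, -1.23 and 0.69; with ATRi in DKO cells 26.1% of all genes rose and 32.4% fell. ZNF750, a driver of terminal epidermal differentiation, had log2 fold changes of 2.25 ± 0.17, -5.12 ± 0.26 and 1.55 ± 0.47 in these comparisons. KLF4, a barrier factor, had 1.02 ± 0.11, -1.24 ± 0.11 and 1.82 ± 0.10. TP63, the master regulator of basal cells, did not pass in the first and second of them and fell with ATRi in DKO cells (-1.45 ± 0.06). Of 6 tested other intermediate filament genes, 0 rose and 5 fell in XRCC4 KO cells (median -2.07). In DKO against XRCC4 KO cells 5 rose and 0 fell (median 2.77). Nestin, NES, was among them (-3.64 ± 0.57 and 6.47 ± 0.33). Over the 26 MCF10A libraries NES had a median of 0.037 FPKM and between 0 and 225 counts. Its log2 fold changes therefore depend on the prior count. SYNM and DES of the same list were low too, with medians of 0.045 and 0.229 FPKM and at most 62 and 21 counts. The list's medians thus rest partly on genes near 0 counts. The comparisons of XRCC4 KO with WT and of DKO with XRCC4 KO cells share the XRCC4 KO libraries. Of 5 luminal mammary markers, 4 were tested, and 1 rose and 2 fell in XRCC4 KO against WT cells while 1 rose and 3 fell in DKO against XRCC4 KO cells. They summed to 92.7 to 93.6 FPKM in DKO, 97.9 to 111 FPKM in XRCC4 KO and 206 to 210.1 FPKM in WT libraries, with 1 of 5 under 0.1 FPKM in the XRCC4 KO and WT libraries; their part in the differences of KRT8 and KRT18 was not tested.

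Other marker lists were counted too. Of 8 breast basal epithelial markers, 1 rose and 3 fell in XRCC4 KO against WT cells at 3 days, against 28.6% and 27.5% of all genes. The markers summed to 2545 to 2602 FPKM in XRCC4 KO and 3011 to 3050 FPKM in WT libraries. In p53 KO cells 2 rose and 6 fell, against 25.9% and 27% of all genes. There the markers summed to 2129.9 to 2209.8 FPKM, against the WT sums just given. Of 3 tested mesenchymal markers, 2 rose and 0 fell in DKO against XRCC4 KO cells, with sums of 631 to 643 FPKM in DKO and 238 to 248 FPKM in XRCC4 KO libraries. In the same comparison, where 32.2% of all genes rose and 32.7% fell, 2 of the 8 breast basal markers rose and 5 fell. Their part in the keratin differences was not tested.

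In RPE-1 cells, all irradiated and given ATRi, KRT8 and KRT18 fell in both p53 KO and WT cGAS cells relative to WT. KRT8 had 168 and 168 CPM in p53 KO and 126 and 111 CPM in WT cGAS libraries, against 430.0 and 408 CPM in WT libraries (log2 fold changes -1.32 ± 0.05 and -1.82 ± 0.05, edgeR adjusted p = 4.17e-13 and 8.11e-15). KRT18 had 211 and 199 CPM in p53 KO and 108 and 94.9 CPM in WT cGAS libraries, against 395 and 365 CPM in WT libraries (log2 fold changes -0.89 ± 0.06 and -1.90 ± 0.06, edgeR adjusted p = 1.18e-08 and 6.73e-12). The libraries of each group were closer to one another than to any of another group for both genes. KRT81 fell as well (-0.97 ± 0.12 and -0.96 ± 0.12), and the hair keratin KRT34 rose, with 7.25 and 7.68 CPM in p53 KO and 8.04 and 8.19 CPM in WT cGAS libraries, against 4.71 and 4.57 CPM in WT libraries. Both comparisons share the WT libraries.

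Of 15 members tested in RPE-1, 2 rose and 5 fell in p53 KO cells, against 34.2% and 32.5% of all genes, and 3 rose and 6 fell in WT cGAS cells, against 29.8% and 30%. The members' median log2 fold changes were -0.09 and 0.18, beside 0.03 and 0.02 for all genes. With FPKM and limma the p53 KO split was 2 higher and 3 lower. KRT80 and KRT10 fell in WT cGAS cells (-0.66 ± 0.06 and -0.48 ± 0.11), and KRT7 rose in them (0.32 ± 0.07). KRT16, under 1 CPM in every RPE-1 library, rose in them too (1.91 ± 0.79), with 6 and 13 counts against 1 and 3 in WT libraries. KRT86 fell in both p53 KO and WT cGAS cells (-0.59 ± 0.23 and -0.65 ± 0.24). KRT79, under 1 CPM on average, rose in p53 KO cells (2.03 ± 0.58). KRT7 was called lower in p53 KO cells (-0.18 ± 0.07), but did not pass without any 1 of the 4 libraries and turned to 0.17 with FPKM and limma. KRT86 was lost in p53 KO cells without WT library 1 or either p53 KO library, and in WT cGAS cells without WT library 1 or either WT cGAS library. KRT10 was lost without WT library 1, and KRT16 without either WT library or WT cGAS library 2.

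KRT5, KRT14, KRT6A and KRT17 were at a trace level in RPE-1, and uneven between replicates in p53 KO cells. Basal KRT15 was even, at 5.33 to 6.86 CPM over the 6 libraries. KRT5 had 0.207 and 4.55 CPM in p53 KO and 1.26 and 4.88 CPM in WT cGAS libraries, against 1.79 and 1.97 CPM in WT libraries, and KRT14 had 0.155 and 2.83 CPM, 0.875 and 3.09 CPM and 0.214 and 0.571 CPM in the same groups. In counts, the p53 KO libraries had 4 and 90 for KRT5, 3 and 56 for KRT14, 4 and 58 for KRT6A and 1 and 26 for KRT17. Replicate 2 was thus the higher one for all 4 genes. Among breast epithelial markers CDH1 was at 0.0290 and 1.29 FPKM and TP63 at 0.156 and 0.218 FPKM in these libraries; whether RNA of the other line has a part in the trace was not tested. KRT1, KRT6C, KRT24, KRT76 and KRT222 were at 0 FPKM in all 6 RPE-1 libraries.

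Between lines, groups with the same irradiation, ATRi and day were compared in a joint fit of experiments 2 and 3, where line and experiment cannot be told apart. In MCF10A DKO against RPE-1 p53 KO cells 26 of 29 members were higher and 2 lower, against 37.9% and 36.9% of all genes. In MCF10A XRCC4 KO against RPE-1 WT cells 21 were higher and 3 lower, against 38.6% and 35.5%. The member rule summed counts over 32 libraries, 26 of them MCF10A. In RPE-1 alone 15 members passed the filter on low counts, so others of the 29 entered through their MCF10A counts. These counts of calls and the medians that follow are thus partly set by the choice of members. The members' median log2 fold changes, with genes at 0 counts in RPE-1 or MCF10A at their bound, were 3.04 and 5.51, beside 0.02 and 0.05 for all genes. KRT7 was higher in MCF10A by log2 fold changes of 6.21 ± 0.06 and 6.10 ± 0.06, and KRT81 by 7.39 ± 0.07 and 6.61 ± 0.07. KRT5, KRT14, KRT6A and KRT17 were higher by between 9.75 and 13.48, relative to the trace levels given above. Against RPE-1 p53 KO cells those of KRT5, KRT14, KRT6A and KRT17 were 9.44, 8.91, 10.28 and 9.91 without RPE-1 p53 KO library 1 and 13.84, 13.03, 14.05 and 14.38 without library 2. Against RPE-1 WT cells KRT14 and KRT17 reached 14.39 and 12.28 without RPE-1 WT library 2. KRT80 was lower in MCF10A in both comparisons (log2 fold change -1.29 ± 0.06, edgeR adjusted p = 8.99e-19, and log2 fold change -3.32 ± 0.08, edgeR adjusted p = 3.94e-26), with FPKM of 12.9 to 20.9 in RPE-1 libraries and 0.447 to 13.1 in MCF10A libraries. KRT8 and KRT18 were higher in DKO than in RPE-1 p53 KO cells (1.36 ± 0.04 and 1.37 ± 0.05) and lower in XRCC4 KO than in RPE-1 WT cells (-2.18 ± 0.05 and -0.46 ± 0.05). Both sides differ between these comparisons, since KRT8 also differed between the RPE-1 groups as given above, so the part of each line's genotype cannot be told apart. KRT10 was close between the lines, with log2 fold changes of 0.28 ± 0.08 and 0.31 ± 0.09; the second was lost without RPE-1 WT library 2. KRT19, also called in the second (1.77 ± 0.79), was lost without either XRCC4 KO ATRi library or RPE-1 WT library 1, and was at 6.09 without RPE-1 WT library 2.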

How the data were processed

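Per the labels' protocols, poly-A RNA was sequenced. The authors deposited a table of estimated counts and one of FPKM for 60332 genes, and per the submitters' processing notes used bcl2fastq, FastQC, STAR, Cuffnorm and DESeq2 with hg19. Versions, strand setting and annotation are not given in the sources used here. The estimated counts deposited by the authors, 96.0 to 97.3% of them whole, were rounded; the deposited FPKM served to compare levels between genes, between experiments and in an alternative test.

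Each experiment was fitted as a whole with edgeR 4.0.16 in R 4.3.3 (filterByExpr, TMM, glmQLFit with robust spread, Benjamini-Hochberg over all 15190, 16632 or 15469 genes tested, 17896 in the joint fit). The fit was tested on simulated counts with known changes. A set share of the larger changes had to be recovered, except in the first experiment, whose replicates were further apart. Few or no calls in that experiment do not show that members were unchanged. Alternatives used RLE factors, no filter, DESeq2 1.42.0, limma 3.58.1 on log2(FPKM + 0.1) or log2(FPKM + 1), a replicate block, the libraries compared alone, and leaving out each library. Counting intervals are exact at the 95% level, and a bound against 0 counts uses 3 counts over the group; both cover counting error only.

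The members and lists were chosen with earlier results of these data known. The naming rule took in 16 main keratins. It added up to 5 called members per direction with the largest changes, among those averaging at least 1 CPM in either group. Main keratins that were not called are often left without a value, so the values printed lean towards members that changed. Called members outside that rule were named after their values were seen. The RNA level of 1 targeted gene is not reported here.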

Additional observations from a re-analysis of the deposited data

Results flagged for a closer look

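For 15 members the ATRi effect differed between DKO and XRCC4 KO cells by the interaction test of edgeR (DKO minus XRCC4 KO, log2 scale, adjusted p below 0.05 over all genes). Positive differences were 4.78 for KRT13, 3.59 for KRT34, 2.60 for KRT4, 1.02 for KRT17, 0.93 for KRT86, 0.87 for KRT81, 0.62 for KRT8, 0.59 for KRT7, 0.48 for KRT16 and 0.33 for KRT10. Negative ones were -1.26 for KRT6B, -1.02 for KRT15, -0.81 for KRT14, -0.59 for KRT5 and -0.41 for KRT6A. Per library, KRT13 had 29.1 and 29.3 CPM with ATRi and 1.51 and 0.873 CPM without in DKO cells, and 15.9 and 14.6 CPM with ATRi and 15.4 and 19.2 CPM without in XRCC4 KO cells.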

How the results depend on the processing

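Counts of called keratins held within 1.5 times in all comparisons of the second experiment and between lines under every alternative. At 3 days of irradiation 1 member was called with either FPKM pseudocount and 0 with the libraries compared alone; at 5 days 5 were called without the filter and 6 with the libraries alone. Between 5 and 3 days 1 was called without the filter and 3 with DESeq2, and for CDK1i 1 without the filter, 2 with DESeq2 and 1 with the block. For cGAS KO 1 was called without the filter, 2 and 3 with FPKM + 0.1 and + 1, and 8 with the libraries alone; for STING KO 4, 4 and 5, and 1; for XRCC4 KO at 5 days 4 without the filter and 3 and 4 with FPKM. DESeq2 called 4 in RPE-1 p53 KO cells. Leaving out 1 library gave 0 to 1 calls at 3 days, 4 to 9 at 5 days, 0 to 0 between them, 0 to 5 for CDK1i, 1 to 2 for cGAS KO, 3 to 10 for STING KO, 4 to 5 for XRCC4 KO at 5 days, 14 to 17 for p53 KO, 19 to 20 for XRCC4 KO at 3 days, 19 to 21 for DKO against XRCC4 KO, 18 to 21 for DKO against p53 KO, 11 to 13 and 12 to 16 for ATRi in XRCC4 KO and DKO cells, 13 to 15 for the interaction, 5 to 7 and 6 to 8 for RPE-1 p53 KO and WT cGAS, and 26 to 28 and 22 to 24 between lines. KRT7 in RPE-1 p53 KO cells turned to 0.17 with FPKM and either pseudocount (limma adjusted p = 0.118 and 0.119); the cause was not tested. With FPKM + 0.1 the median of all genes shifted to between -0.25 and 0.33, so that scale is not centred as the TMM one. KRT7 led by FPKM in 7 MCF10A groups, by CPM in 0 and, an alternative chosen after seeing the data, by CPM per kilobase in 0. A minimum of 200 counts kept 27 of 35 members. Replicate numbers correlated at 0.30 to 0.44 in the WT comparisons of the first experiment and between -0.15 and 0.03 elsewhere; no label ties them to a shared batch, and with 2 pairs it was not settled whether they pair the libraries. The fit with the replicate block called 3, 8, 0 and 1 members for 3 days, 5 days, 5 against 3 days and CDK1i, 5, 9 and 8 for cGAS, STING and XRCC4 KO, 17, 20, 20, 20, 13, 14 and 15 in the second experiment, 8 and 10 in RPE-1, and 28 and 23 between lines. KRT4 and KRT6B at 5 days, KRT6C in cGAS KO, KRT4 in STING KO, and KRT13 and KRT24 in XRCC4 KO cells at 5 days were not called with the block, nor were KRT83 with ATRi in DKO cells and KRT19 in XRCC4 KO against RPE-1 WT cells. Of the named calls, 5 of 32 in the first, 91 of 108 in the second and 9 of 15 in the third experiment passed in every setting.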
